A study of Mus musculus with 6 samples.

Results

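A group of 10 chaperones and folding enzymes of the endoplasmic reticulum (ER) was followed in whole ovaries at day 1, in 3 libraries labelled cKO and 3 labelled WT. The genes are Hspa5, Hyou1, Dnajb9, Sdf2l1, Hsp90b1, Calr, Canx, Pdia3, Pdia4 and Pdia6. They were taken by symbol from a table of 25164 genes, where all 10 were present, and all 10 were among the 12442 genes tested, which had a mean over the 6 libraries of 1 FPKM or more. FPKM is a fragment count corrected for transcript length and for the number of mapped fragments. The cKO animals carried homozygous floxed Hnrnpl (hnRNPL flox/flox) and the Stra8-cre transgene, and the WT animals are labelled only as wild type, with no statement on floxed alleles or Cre. Both groups were C57BL/6 mice, and no other treatment sets them apart in the labels. A hormone challenge is mentioned in the protocol common to all samples, without its name. Stra8-cre drives recombination in germ cells, and the tissue was measured whole, somatic cells included. No label states that the libraries came from separate animals. The p-values then measure only the spread between these libraries, which may be technical.

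Secreted and membrane proteins fold in the ER, where Hspa5 (BiP), an HSP70-type chaperone, holds unfolded chains with the help of J-domain cochaperones and the nucleotide exchange factor Hyou1. Hsp90b1 (GRP94) acts on selected clients, the lectins Calr and Canx hold glycoproteins together with Pdia3, and Pdia4 and Pdia6 form or rearrange disulfide bonds. When unfolded proteins build up, the sensors Atf6 and Ern1 raise transcription of these genes through the ER stress response element (ERSE) and related sites, while the sensor Eif2ak3 acts through translation and Atf4. In the ovary this compartment makes, among other proteins, the collagens of the stroma and the zona pellucida of the oocyte.

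The promoters are shown because the ERSE is the sequence feature for which this gene group is known. A window of 250 bases before to 50 after the start was found in the RefSeq table (GRCm38.p6) for 9 of the 10 genes, the exception being Hyou1. The exact ERSE, read on both strands as CCAAT, then 9 bases of any kind, then CCACG, occurred in 5 of the 9 windows (55.6%), against 39 of all 32851 windows (0.119%) and 0.168% of the windows of tested genes. In the matches below, each written 5′ to 3′ in the direction of the motif, capitals mark the CCAAT and CCACG ends.
Hspa5, chr2:34772025-34772043, plus strand: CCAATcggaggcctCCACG
Hsp90b1, chr10:86705638-86705656, minus strand: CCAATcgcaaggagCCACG
Hsp90b1, chr10:86705533-86705551, plus strand: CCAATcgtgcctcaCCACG
Calr, chr8:84847075-84847093, plus strand: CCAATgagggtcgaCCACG
Canx, chr11:50325800-50325818, minus strand: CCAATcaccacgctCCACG
Pdia6, chr12:17266491-17266509, plus strand: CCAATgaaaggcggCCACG

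With the last base of the motif left free, a form searched after the exact one, Pdia3 and Pdia4 matched as well, so that 7 of 9 windows held it (77.8%), against 0.365% of all windows. In the lines below capitals mark CCAAT and CCAC.
Pdia3, chr2:121413873-121413891, plus strand: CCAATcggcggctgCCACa
Pdia4, chr6:47813602-47813620, plus strand: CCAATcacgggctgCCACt

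Neither form occurred in the windows of Dnajb9 and Sdf2l1. All 9 windows held at least 1 CCAAT on either strand, as did 37.4% of all windows, and each ERSE match contains such a CCAAT. ERSE-II (ATTGG, 1 base, CCACG) and a core of the Atf4 composite site (TGATG, 1 base, AA) occurred in 0 of the 9 windows, against 0.0365% and 3.97% of all windows. That composite core was found in 9 of 26 windows (34.6%) of the Atf4 target list described further on. The core TGACGTG of the unfolded protein response element occurred in 1, that of Hspa5, against 2.01% of all windows. The Hspa5 window, chr2:34771840-34772139 on the plus strand, is printed whole because it holds both this core and an ERSE, and capitals mark the ERSE, from -65 to -47 relative to the start.
Hspa5: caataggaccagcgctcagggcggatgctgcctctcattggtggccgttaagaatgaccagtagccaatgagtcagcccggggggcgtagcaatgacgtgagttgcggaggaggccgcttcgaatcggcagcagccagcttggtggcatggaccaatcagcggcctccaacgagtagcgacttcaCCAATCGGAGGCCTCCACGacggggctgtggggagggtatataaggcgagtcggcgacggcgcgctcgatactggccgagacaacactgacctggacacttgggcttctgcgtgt

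Depth was estimated at 7200000 to 14400000 fragments per library, with cKO replicate 1 the shallowest. That library stood apart: its FPKM summed to 335667, against 223845 to 246121 in the others, and 58.0% of all tested genes had their highest value there. Median-of-ratios scaling, which divides a library by its median ratio to a geometric mean library, gave a factor of 1.18 for cKO replicate 1 and 0.949 to 0.989 for the other 5. Hnrnpl (chromosome 7, from 28808546 to 28822268) was measured at 100.5, 81.5 and 85.2 FPKM in cKO libraries and at 104.1, 93.8 and 101.9 FPKM in WT libraries, which overlapped (limma adjusted p = 0.571). After scaling all cKO values of Hnrnpl were lower, and the gene was still not called (limma adjusted p = 0.15). The floxed exons cannot be seen in a gene-level value of whole tissue. Ovarian markers were present, with 13 of 14 germ cell and 12 of 12 pregranulosa markers tested, while Stra8 itself was listed at 0 in every library.

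The comparison of cKO with WT asks whether deletion of Hnrnpl aimed at germ cells goes with altered transcripts of the ER folding machinery. None of the 10 chaperone genes was called in cKO ovaries, with adjusted p from 0.358 to 0.964 (limma on log2(FPKM + 1), Benjamini-Hochberg over all tested genes), and 0 had an unadjusted p under 0.05, against 14.2% of all tested genes. Among all tested genes 0.121% were called, 15 genes, of which 6 were higher and 9 lower in cKO (with median-of-ratios scaling, 95 and 66). With so small a share, 0 called among 10 genes does not set them apart. Every 95% interval of the log2 fold change included 0, and for 9 of the 10 genes it lay within a 1.5-fold change either way, from -0.50 at the lowest to 0.41 at the highest bound. For Sdf2l1 the interval reached -0.62. The median log2 fold change of the 10 was -0.03, beside 0.08 for all tested genes. In a bulk tissue fewer cells of a type and less RNA per cell cannot be told apart.

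**Figure D1:**
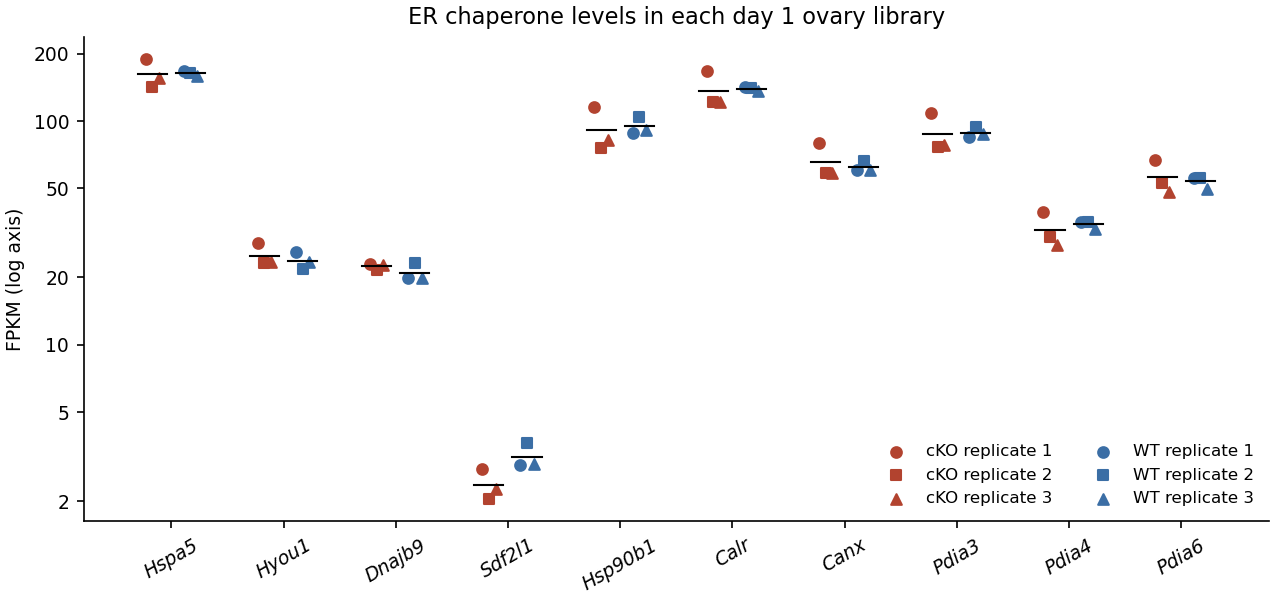
FPKM (log axis) of the 10 ER chaperone genes in each library, with cKO on the left and WT on the right of each gene and a black line at the group mean. Levels run from about 2 FPKM for Sdf2l1 to 189.7 FPKM for Hspa5, and cKO replicate 1 is the highest library for 8 of the 10 genes.

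Hspa5, on chromosome 2 from 34772090 to 34776529, was the most abundant of the 10. It had 189.7, 142.5 and 155.8 FPKM in cKO libraries and 167.9, 164.3 and 158.8 FPKM in WT libraries. The cKO libraries lay on both sides of the WT libraries, with replicate 1 above all 3 and the other two below all 3. The log2 fold change was -0.02 (SE 0.16, 95% interval from -0.38 to 0.34, limma adjusted p = 0.964). An exact permutation test of the libraries, two-sided, gave p = 0.9, where 3 against 3 cannot go below 0.1.

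The partners of Hspa5 did not share a single pattern. Hyou1, on chromosome 9 from 44379490 to 44392369, had 28.4, 23.2 and 23.3 FPKM in cKO libraries against 26.1, 21.7 and 23.5 FPKM in WT libraries. Its groups overlapped throughout (log2 fold change 0.07). Dnajb9 (ERdj4), a J-domain cochaperone encoded on chromosome 12 from 44205897 to 44210068, had 23.1, 21.6 and 22.7 FPKM in cKO libraries against 19.8, 23.1 and 19.9 FPKM in WT libraries. Its spread over the 6 libraries was the smallest of the 10 genes, with a coefficient of variation of 6.99%, and its log2 fold change was 0.10 (SE 0.10).

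Sdf2l1, on chromosome 16 from 17130138 to 17132383, encodes an ER-resident partner of the J-domain cochaperone Dnajb11. It had 2.79, 2.04 and 2.26 FPKM in cKO libraries against 2.90, 3.63 and 2.93 FPKM in WT libraries. All cKO values lay below all WT values, which held for 1 of the 10 genes and for 7.03% of all tested genes, while all cKO values lay above all WT values for 0 of the 10 and for 15.5% of all tested genes. The log2 fold change of Sdf2l1 was -0.31 (SE 0.13) and did not pass (limma adjusted p = 0.358; unadjusted p = 0.0533; exact two-sided permutation p = 0.1, the smallest possible). Its values rested on an estimated 18 to 25 fragments per library in cKO and 30 to 45 in WT, where the other 9 genes had an estimated 377 to 8399, and a pseudocount of 1 FPKM understates its change.

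Hsp90b1, on chromosome 10 from 86690841 to 86705444, had 115.3, 75.6 and 81.9 FPKM in cKO libraries and 88.8, 104.5 and 91.6 FPKM in WT libraries. As for Hspa5, replicate 1 of cKO was above and the other two cKO libraries below every WT library (log2 fold change -0.08, SE 0.18). The same order of libraries was seen in each of the glycoprotein chaperones. Calr, a soluble lectin encoded on chromosome 8 from 84842088 to 84846931, had 167.1, 121.1 and 121.6 FPKM in cKO libraries and 142.3, 140.6 and 135.9 FPKM in WT libraries. Canx, its membrane-bound relative on chromosome 11 from 50293957 to 50325673, had 79.4, 58.4 and 58.7 FPKM in cKO libraries and 60.1, 66.3 and 60.1 FPKM in WT libraries. Pdia3, the oxidoreductase that works with both lectins (chromosome 2, from 121413902 to 121438687), had 108.6, 76.4 and 77.8 FPKM in cKO libraries and 84.8, 94.0 and 87.2 FPKM in WT libraries. Their log2 fold changes of -0.05, 0.06 and -0.03 were small beside their standard errors of 0.16, 0.15 and 0.16.

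The other oxidoreductases gave similar values. Pdia4, on chromosome 6 from 47796141 to 47813512, had 39.2, 30.4 and 27.9 FPKM in cKO libraries against 35.4, 35.4 and 33.1 FPKM in WT libraries (log2 fold change -0.10, SE 0.14). Pdia6, on chromosome 12 from 17266589 to 17284785, had 67.1, 53.1 and 48.4 FPKM in cKO libraries against 55.8, 55.7 and 49.7 FPKM in WT libraries (log2 fold change 0.05, SE 0.15). For both genes the cKO values reached above and below all WT values, with replicate 1 the highest.

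Between genes, levels followed a nearly fixed order on the FPKM scale. By their mean over the 6 libraries they ran Hspa5 (163 FPKM), Calr (138), Hsp90b1 (93.0), Pdia3 (88.1), Canx (63.8), Pdia6 (55.0), Pdia4 (33.6), Hyou1 (24.4), Dnajb9 (21.7) and Sdf2l1 (2.76). Each gene lay above the next in all 6 libraries, except Hsp90b1 over Pdia3 and Hyou1 over Dnajb9, which held in 5 of 6. For those 2 pairs of neighbours the order changed in 1 library, and the difference in level was not tested. Hspa5 stood at the 98.7th to 99.0th percentile of the tested genes in every library, and Sdf2l1 at the 14.6th to 27.8th.

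In every library but WT replicate 1, where 5 genes lay on each side, at least 9 of the 10 lay on the same side of their WT means. In cKO replicate 1, 9 of the 10 genes lay above their WT mean, as did 76.0% of all tested genes. Their median deviation was 0.26 on the log2 scale, beside 0.23 for all tested genes. In cKO replicates 2 and 3, 9 of the 10 lay below their WT mean in each library, with median deviations of -0.19 and -0.17. The median of all tested genes was near 0 in both (-0.0049 and 0.0045), with 49.1% and 51.0% of them above. Within WT, 9 of the 10 lay above the mean in replicate 2 and 0 in replicate 3, against 53.2% and 37.6% of all tested genes. Genes that shift together within a library are not separate observations. Without cKO replicate 1, all cKO values lay below all WT values for 7 of the 10 genes, against 17.8% of all tested genes, and the median log2 fold change of the 10 was -0.17. In that fit 0 of the 10 were called (lowest limma adjusted p = 0.191), against 0.717% of all tested genes. Without cKO replicate 2 or 3 all cKO values lay below all WT values for 1 of the 10, against 8.54% and 10.3%. The median log2 fold change of the 10 was then 0.06 and 0.03.

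**Figure D2:**
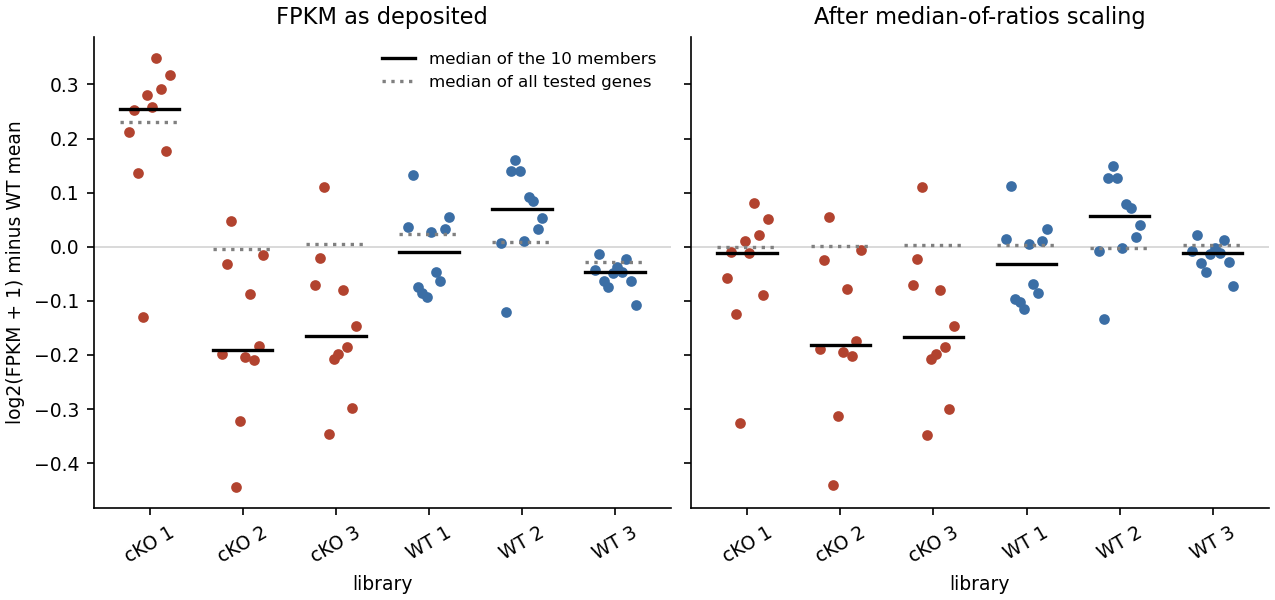
Difference of log2(FPKM + 1) from the WT mean of the same gene for the 10 members in each library (points), before and after median-of-ratios scaling, with the median of the members (black) and of all tested genes (dotted). Before scaling cKO replicate 1 has a member median of 0.26 and cKO replicates 2 and 3 have -0.19 and -0.17. After scaling they have -0.01, -0.18 and -0.17.

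After median-of-ratios scaling 9 of the 10 log2 fold changes were below 0, against 6 as deposited, with a median of -0.11 beside 0.0004 for all tested genes, and the signs of Hyou1, Canx and Pdia6 changed from positive to negative. Still none of the 10 was called (lowest limma adjusted p = 0.15, with 2 unadjusted p under 0.05 beside 18.9% of all tested genes), against 1.29% of all tested genes called. All cKO values lay below all WT values for 4 of the 10 genes, against 13.0% of all tested genes, and all above for 0 of the 10, against 12.6%. Scaled Hspa5 had 161.4, 147.3 and 160.0 FPKM in cKO libraries and 169.9, 167.2 and 167.2 FPKM in WT libraries. Scaled Calr had 142.2, 125.2 and 124.9 FPKM in cKO libraries and 143.9, 143.1 and 143.2 FPKM in WT libraries. Scaled Pdia4 had 33.4, 31.4 and 28.7 FPKM in cKO libraries and 35.8, 36.0 and 34.8 FPKM in WT libraries. In each of these 3 the highest cKO library lay just under the lowest WT library. Scaled Sdf2l1 had 2.37, 2.11 and 2.32 FPKM in cKO libraries and 2.94, 3.69 and 3.09 FPKM in WT libraries, a log2 fold change of -0.37 (95% interval from -0.64 to -0.10) with a limma adjusted p of 0.15.

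**Figure D3:**
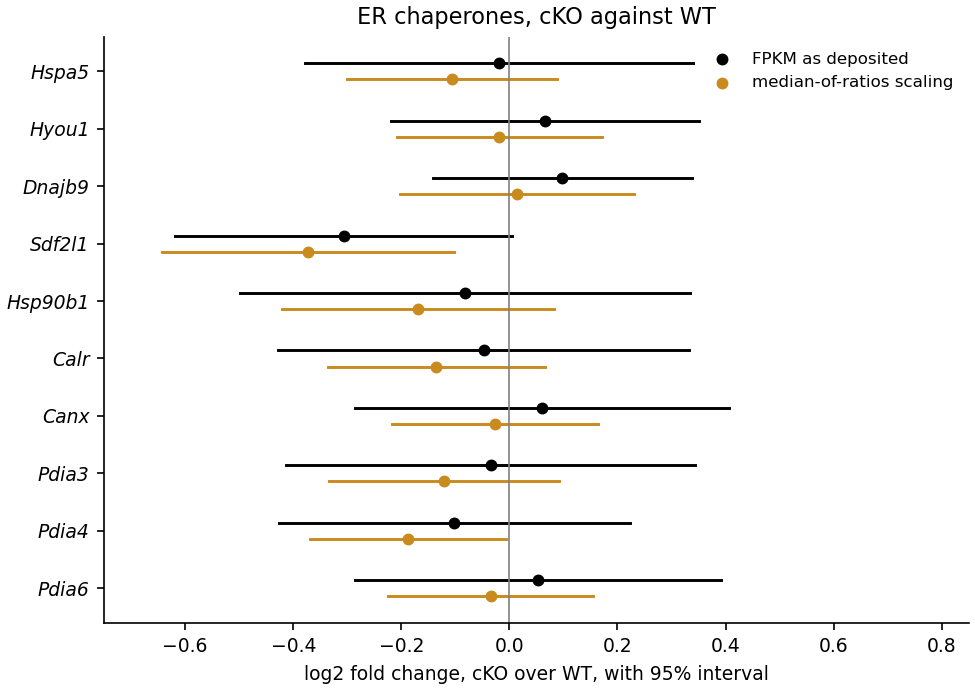
Log2 fold change of cKO over WT with its 95% interval for the 10 genes, from FPKM as deposited (black) and after median-of-ratios scaling (ochre). As deposited all 10 intervals include 0, and after scaling those of Sdf2l1 and Pdia4 lie below 0 without adjustment for the number of genes tested.

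Quantile normalization gave 7 of 10 genes with all cKO values below all WT values, against 12.9% of all tested genes, and TPM rescaling gave 7 of 10 against 19.1%. After quantile normalization 0 of 10 were called, against 1.90% of all tested genes, and 5 had an unadjusted p under 0.05, against 19.0%. After TPM rescaling 0 of 10 were called, against 0.818% of all tested genes, and 6 had an unadjusted p under 0.05, against 16.6%.

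Ratios between genes of the same library do not depend on a library factor. The 7 ratios computed were chosen after the values were seen. Hspa5 over Hspa8, its constitutive cytosolic relative, was 0.370, 0.397 and 0.411 in cKO libraries and 0.506, 0.461 and 0.474 in WT libraries. Hsp90b1 over Hsp90aa1, an HSP90 of the cytosol, was 0.632, 0.644 and 0.701 in cKO libraries and 0.838, 0.853 and 0.870 in WT libraries. Both ratios were lower in all cKO libraries than in any WT library. A ratio does not tell which of its genes differs. As deposited, the log2 fold changes of the denominators Hspa8 and Hsp90aa1 were 0.27 and 0.29, beside -0.02 for Hspa5 and -0.08 for Hsp90b1. After median-of-ratios scaling Hspa8 and Hsp90aa1 had 0.18 and 0.20, beside -0.11 for Hspa5 and -0.17 for Hsp90b1. Against Hsp90ab1, the more abundant cytosolic HSP90, the ratio of Hsp90b1 was 0.159 ± 0.014 in cKO and 0.191 ± 0.020 in WT (SD, n = 3 each), and against the mitochondrial Hspa9 the ratio of Hspa5 was 3.11 ± 0.50 in cKO and 3.75 ± 0.14 in WT (SD, n = 3 each), where cKO replicate 3 overlapped WT. Exact two-sided permutation tests gave p = 0.1 for the ratios to Hspa8, Hsp90aa1 and Hsp90ab1 and 0.2 for that to Hspa9. With Benjamini-Hochberg adjustment over the 7 ratios these were 0.175 and 0.28. Groups without overlap always give 0.1, the smallest exact p possible for 3 against 3 libraries. Neither that p nor its adjusted value could therefore fall under 0.05. How often ratios of other gene pairs lie without overlap was not computed. Among the members themselves, Hspa5 over Hsp90b1 was 1.81 ± 0.14 in cKO and 1.73 ± 0.16 in WT (SD, n = 3; exact permutation p = 0.6). Calr over Canx was 2.08 ± 0.02 in cKO and 2.25 ± 0.12 in WT, without overlap (exact permutation p = 0.1, adjusted 0.175), and Hspa5 over Dnajb9 was 7.23 ± 0.87 in cKO and 7.85 ± 0.69 in WT (exact permutation p = 0.3, adjusted 0.35).

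**Figure D4:**
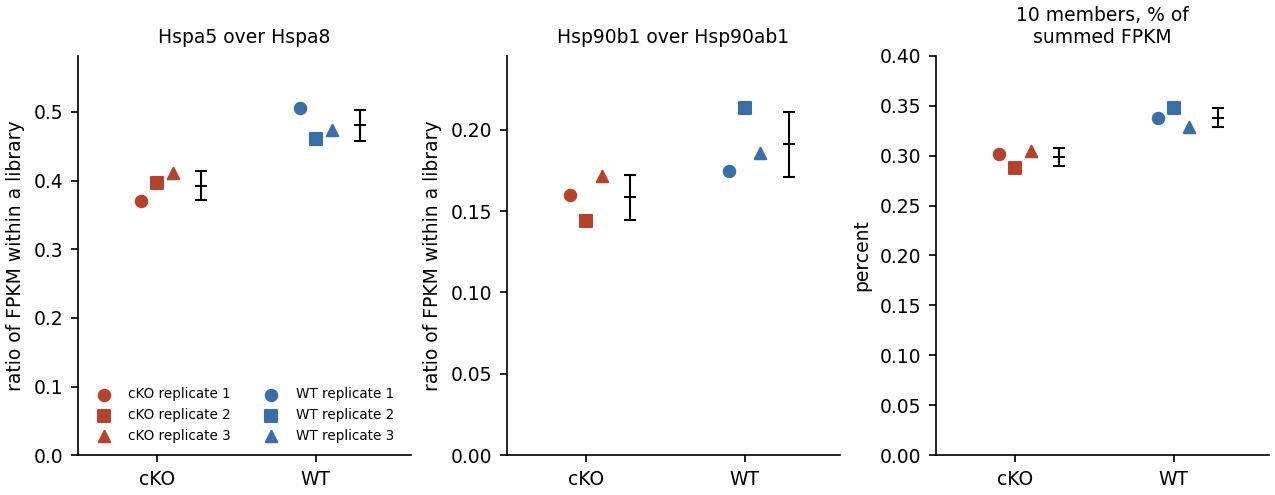
Ratio of FPKM within each library for Hspa5 over Hspa8 and Hsp90b1 over Hsp90ab1, and the 10 members as a percent of summed FPKM of tested genes without the structural RNAs Rmrp, Rpph1 and Rn45s. Points are libraries and bars are the mean ± SD of 3. The 10 members hold 0.288% to 0.305% in cKO libraries and 0.329% to 0.348% in WT libraries.

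As a share of the summed FPKM of all tested genes without structural RNAs, the 10 members held 0.302%, 0.288% and 0.305% in cKO libraries and 0.337%, 0.348% and 0.329% in WT libraries. The groups did not overlap in this share, for which no test was made. It is a share of length-corrected values, not of fragments, and moves with every other abundant gene. As deposited 1 of 13 germ cell and 1 of 7 surface epithelium markers were called, against 0.121% of all tested genes. After scaling 4 of 13 germ cell markers were called higher and 2 lower, against 1.29% of all tested genes called. Also called lower after scaling were 1 of 12 pregranulosa, 2 of 10 stroma and 3 of 7 surface epithelium markers. The summed levels of some lists as deposited did not overlap between groups. Summed stroma markers ran from 791.3 to 871.6 FPKM in cKO libraries and from 1033 to 1081 FPKM in WT libraries. Of their log2 fold changes 10 of 10 were negative and 0 called as deposited. After scaling Nr2f2 and Postn were called lower. All scaled cKO values then lay below all WT values for 10 of 10, against 13.0% of all tested genes. For the endothelium, summed markers ran from 65.6 to 80.7 FPKM in cKO libraries and from 81.4 to 102.6 FPKM in WT libraries, with 8 of 8 negative and 0 called. Summed germ cell markers ran from 206.5 to 369.0 FPKM in cKO libraries and from 167.3 to 181.9 FPKM in WT libraries, with 10 of 13 positive. The single germ cell marker called was Zp3, a zona pellucida protein, which fell, and after scaling 4 were called higher and 2 lower. Summed surface epithelium markers ran from 191.0 to 302.1 FPKM in cKO libraries and from 273.4 to 306.1 FPKM in WT libraries. Of these markers 6 of 7 were negative, with Upk1b called lower as deposited and Upk1b, Upk3b and Krt19 after scaling. Summed pregranulosa markers ran from 467.4 to 576.4 FPKM in cKO libraries and from 473.3 to 475.7 FPKM in WT libraries. As deposited 7 were positive, 5 negative and 0 called. After scaling Rspo1 was called lower, and 0 endothelial or blood markers were called. Summed blood markers ran from 376.8 to 494.7 FPKM in cKO libraries and from 374.9 to 768.3 FPKM in WT libraries, with 4 of 7 negative and 0 called. Their part in the chaperone values was not tested.

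Of the sensors and transcription factors that act on these genes, 0 of 20 tested were called, against 0.121% of all tested genes. At that share 0 called does not set this list apart, nor the further lists below with 0 called. Of the 20, 3 had a limma unadjusted p under 0.05, against 14.2% of all tested genes. The median log2 fold change of the 20 was 0.11, beside 0.08 for all tested genes. After scaling it was 0.03, with 10 positive and 10 negative. Xbp1, whose mRNA is spliced by the sensor Ern1 to give an activator of ER genes, had 22.3, 18.0 and 16.9 FPKM in cKO libraries against 15.1, 16.3 and 15.0 FPKM in WT libraries. Atf6b, a relative of Atf6, had 21.6, 17.9 and 15.0 FPKM in cKO libraries against 14.9, 12.5 and 13.1 FPKM in WT libraries. For both genes every cKO library lay above every WT library, with log2 fold changes of 0.28 and 0.39 (limma adjusted p = 0.358 and 0.293). Such an order held for 6 of the 20, against 15.5% of all tested genes, and the reverse for 1, against 7.03%. Atf4, the effector of the Eif2ak3 branch, had 127.9, 98.5 and 98.7 FPKM in cKO libraries against 89.1, 84.6 and 85.1 FPKM in WT libraries (limma adjusted p = 0.373), again without overlap. Creb3l1, an ER-bound factor of collagen-secreting cells, was lower in all cKO libraries, at 9.76, 11.1 and 10.7 FPKM in cKO libraries against 14.2, 13.2 and 11.9 FPKM in WT libraries (log2 fold change -0.29, limma adjusted p = 0.29). Atf6 itself, Ern1, Eif2ak3 and Ddit3 overlapped between groups, with log2 fold changes of 0.16, -0.15, -0.15 and 0.02. A gene-level FPKM shows neither the splicing of Xbp1 nor the cleavage of Atf6.

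Other ER folding genes had a median log2 fold change of 0.08, equal to that of all tested genes, with 34 positive and 11 negative. Of 45 tested, 0 were called, against 0.121% of all tested genes, and 0 had a limma unadjusted p under 0.05, against 14.2%. P4hb, the archetypal disulfide isomerase, averaged 95.8 ± 21.2 FPKM in cKO and 98.1 ± 3.17 FPKM in WT (SD, n = 3). Pdia5 averaged 7.13 ± 0.88 FPKM in cKO and 8.36 ± 0.71 FPKM in WT (SD, n = 3). The log2 fold change of Pdia5 was -0.21, while Fkbp11, Sdf2 and Ero1l had 0.35, 0.27 and 0.20 (limma adjusted p from 0.416 to 0.517). The Hspa5 cochaperones Dnajc3 and Dnajb11 had log2 fold changes of -0.09 and 0.15, the exchange factor Sil1 one of 0.06, and the stress-induced ER proteins Manf and Creld2 0.15 and 0.09. Genes of ER-associated degradation, which export misfolded proteins, had 0 of 29 called, against 0.121% of all tested genes. Of the 29, 3 had a limma unadjusted p under 0.05, against 14.2% of all tested genes. Herpud1, a stress-induced component of the degradation complex, averaged 12.2 ± 1.89 FPKM in cKO and 9.18 ± 1.07 FPKM in WT, while Syvn1, its ubiquitin ligase, averaged 6.88 ± 0.84 FPKM in cKO and 8.31 ± 0.05 FPKM in WT (SD, n = 3; log2 fold changes 0.38 and -0.25, limma adjusted p = 0.284 and 0.347). Of 32 genes for translocation into the ER, signal peptide removal and N-glycosylation 30 had positive log2 fold changes, with a median of 0.16. After scaling 27 were positive, with a median of 0.08. As deposited 0 were called, against 0.121% of all tested genes, and 3 had a limma unadjusted p under 0.05, against 14.2%. Srp14, of the signal recognition particle, averaged 45.9 ± 11.7 FPKM in cKO and 32.4 ± 1.99 FPKM in WT, and Sec61g, of the translocon, averaged 24.8 ± 8.52 FPKM in cKO and 16.2 ± 1.06 FPKM in WT (SD, n = 3; limma adjusted p = 0.301 and 0.315). After scaling their log2 fold changes were 0.38 and 0.46 with limma adjusted p of 0.119 and 0.154.

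**Figure D5:**
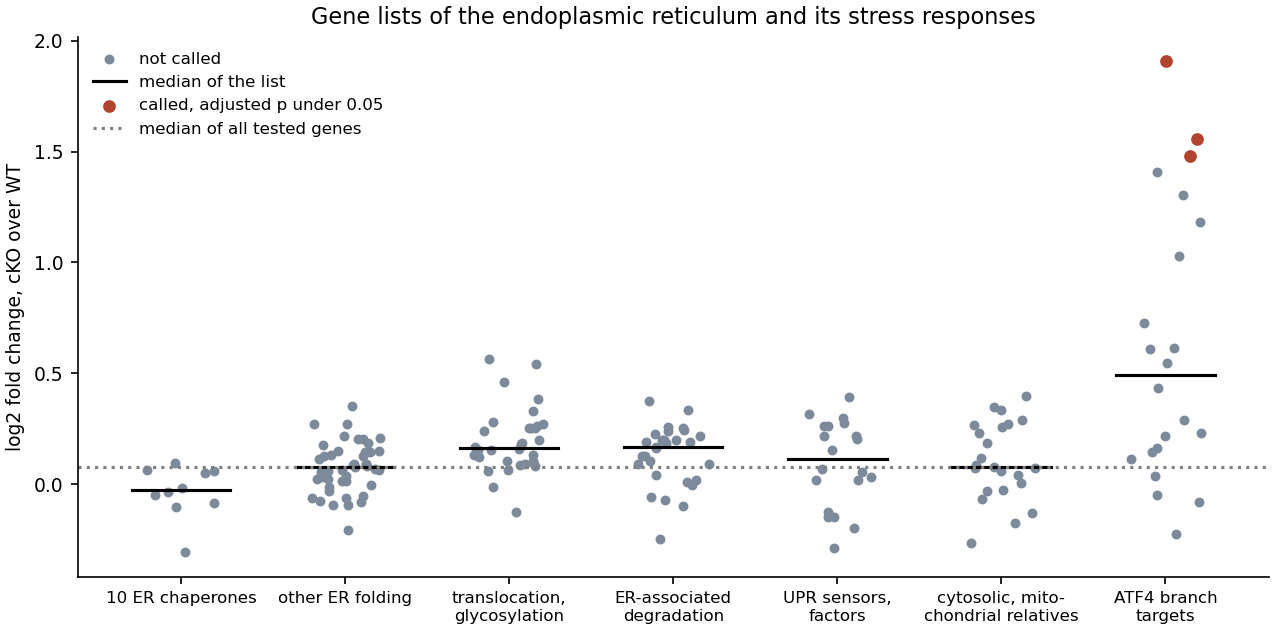
Log2 fold change of cKO over WT from FPKM as deposited for every tested gene of 7 lists, with the median of each list (black line) and of all tested genes (dotted, 0.08). The 10 ER chaperones have a median of -0.03 and the targets of the Atf4 branch one of 0.49, with 3 called genes in red.

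Relatives of the members in the cytosol and mitochondria had a median of 0.08, with 0 of 23 called, against 0.121% of all tested genes. Of the 23, 3 had a limma unadjusted p under 0.05, against 14.2% of all tested genes. Hspa8 averaged 416.9 ± 83.6 FPKM in cKO and 341.1 ± 13.5 FPKM in WT, Hsp90ab1 574.7 ± 128.5 FPKM in cKO and 497.6 ± 9.81 FPKM in WT, and Hspd1, the mitochondrial chaperonin, 44.6 ± 6.35 FPKM in cKO and 34.6 ± 2.55 FPKM in WT (SD, n = 3). Their log2 fold changes of 0.27, 0.18 and 0.35 had limma adjusted p of 0.538, 0.714 and 0.301. Among targets of the Atf4 branch 3 of 22 tested genes were called higher as deposited, against 0.121% of all tested genes called either way. After scaling 7 were called higher, against 1.29%, and 0 were called lower in either. The median log2 fold change was 0.49, with 3 of the 22 negative as deposited and 4 after scaling. The 3 genes called as deposited were the asparagine synthetase Asns, the folate enzyme Mthfd2 and the stress regulator Nupr1. Their log2 fold changes were 1.48, 1.56 and 1.91, each with a limma adjusted p of 0.0437. Asns had 24.9, 16.6 and 14.5 FPKM in cKO libraries and 5.93, 5.80 and 5.93 FPKM in WT libraries. Leaving out cKO replicate 2 or any 1 WT replicate ended all 3 calls of Asns, Nupr1 and Mthfd2 (limma adjusted p from 0.0799 to 0.172), as did testing without the filter (0.106 to 0.108) or without the intensity trend (0.054). Whether the chaperones and the Atf4 targets differ in their change was not tested.

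The exact ERSE was also used to define a group by sequence alone. It was found in the windows of 21 tested genes, the 5 chaperones Hspa5, Hsp90b1, Calr, Canx and Pdia6 and 16 others, among them the ER genes Creld2, Dnajc3, Derl3 and Syvn1. None of the 21 was called, as deposited or after scaling, against 0.121% and 1.29% of all tested genes. At such shares 0 of 21 does not set the group apart. The median log2 fold change of the 21 was 0.01 as deposited and -0.06 after scaling. It was -0.02 and -0.11 for the 5 chaperones alone, 0.05 and -0.03 for the 16 others, and 0.08 and 0.0004 for all tested genes. The 4 other chaperones with a window had log2 fold changes of -0.03 (Pdia3), -0.10 (Pdia4), 0.10 (Dnajb9) and -0.31 (Sdf2l1).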

How the data were processed

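Whole day 1 ovaries were sequenced in 6 libraries, 3 cKO and 3 WT, grouped by sample title, and each column of the table matched 1 title. The authors deposited FPKM per gene symbol in 1 table. The submitters' processing notes name featureCounts 2.0.6, HISAT2 2.2.1, STAR 2.7.11a and the mm10 build, with no role for any. The program behind the FPKM and its annotation are not given in the sources used here. The table's own name hints that duplicate reads were removed, which can lower abundant genes most. FPKM is relative to each library's mapped fragments, so an abundant RNA lowers all else.

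Genes averaging 1 FPKM or more were tested on log2(FPKM + 1) with limma 3.58.1 in R 4.3.3 (intensity trend, two-sided, Benjamini-Hochberg over 12442 genes, called at adjusted p under 0.05). The procedure was also run on simulated data, with noise drawn independently for each gene. Those data held no shift shared by the genes of a library, such as that of cKO replicate 1. Fold changes are on the log2(FPKM + 1) scale, which understates low genes. Depth was inferred from the step between low FPKM values in genes with 1 GENCODE M21 transcript of 1500 bases or more, taking fragments as 200 bases long. A list was described by counts and its median. Named were the 10 members, Hnrnpl, fixed regulators, cochaperones and relatives, and from each of 6 other lists some of the 4 genes with the smallest p. Relatives with similar sequence may share reads. The alternatives were another pseudocount and filters, 4 rescalings, other variance models, a replicate block and leaving out libraries. The members and lists were chosen with earlier results of these data known.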

Additional observations from a re-analysis of the deposited data

How the results depend on the processing

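The count of 0 called chaperones was the same under each alternative run, with the lowest adjusted p of a member at 0.0717 (Sdf2l1 after the length and GC correction). The count of 15 called genes over the whole table was 34 with a pseudocount of 0.1 FPKM, 5 with no filter, 23 among genes averaging 5 FPKM or more, 161 after median-of-ratios scaling, 236 after quantile normalization, 124 after TPM rescaling, 470 after the length and GC correction, 5 without the intensity trend and 172 with library weights. Leaving out single libraries, with or without scaling, gave 2 to 209 (scaling together with a library left out or with the block was chosen after seeing the data). Members with groups that do not overlap numbered 1 as deposited (22.6% of all tested genes), 0 with the filter at 5 FPKM (23.4%), which removed Sdf2l1, 4 after median-of-ratios scaling (25.6%) and after the length and GC correction (27.6%), 7 after quantile normalization (25.2%) and TPM rescaling (24.0%), and 1 to 7 without single libraries (28.9% to 41.5%). The median log2 fold change of the members was -0.03 as deposited and -0.23 after TPM rescaling, where that of all tested genes was -0.13. It was negative under each alternative run except without cKO replicate 2 (0.06) or cKO replicate 3 (0.03). Sdf2l1 and Pdia4 had negative log2 fold changes under each alternative in which they were tested, from -0.58 to -0.23 and from -0.31 to -0.0033. The other 8 members took both signs, to unlike degrees. Of 23 alternatives, Hsp90b1 was negative under 22, Hspa5 and Calr under 21 each and Pdia3 under 20. Pdia6 was negative under 13, Canx and Hyou1 under 11 each and Dnajb9 under 7. The causes were not tested. Replicate numbers did not pair the libraries (r of same-numbered deviations -0.01, 0.04 and 0.07), and the replicate block left 2 called genes (Nupr1 among them at adjusted p = 0.0179, while Asns at 0.072 and Mthfd2 at 0.0539 were not called), or 25 and 4 members without overlap after scaling. Depth limits Sdf2l1, at 18 to 45 estimated fragments.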
